A study of Mus musculus with 3 samples.

Results

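The genes described here are the translation initiation and elongation factors of the mouse, taken as every protein-coding autosomal gene in the count files whose GENCODE M21 name begins with Eif or Eef. The rule uses names and positions only, and no measured value. It found 66 genes among the 55401 identifiers counted. All 66 have a row in every library, and 64 of them reached the mean of 10 counts per library that was required for comparing libraries. The other two were *Eef1a2*, with 3, 4 and 8 counts, and *Eif4e1b*, with 0 counts in every library.

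The counts came from bulk RNA-Seq of 3 libraries, each from maxillary processes dissected at E10.5 from embryos of the genotype wnt1cre; Rosa26Dlx2/- (OE). The Rosa26 allele, CAG-LSL-Dlx2-3xFlag, carries a Dlx2 copy behind a stop cassette, and Wnt1-driven Cre removes that cassette in cells of neural crest origin, so epithelium, blood and other cells of the dissected tissue do not gain Dlx2 by this route. The labels call the libraries independent RNA samples in their extraction protocol and do not say whether embryos or litters were pooled, so the spread between them may be biological or technical. All 3 carry the same genotype label, and wild-type libraries were not analysed here. The 3 OE libraries were not alike in Y-linked counts, with *Eif2s3y* at 0 counts in replicate 1, 1479 in replicate 2 and 1896 in replicate 3. The part of embryo sex in the differences between libraries was not tested. Every value below is a level in Dlx2-overexpressing tissue or a difference between its replicates, not an effect of Dlx2.

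Translation starts when a small ribosomal subunit carrying the initiator tRNA on eIF2 is brought to the capped 5′ end of an mRNA by eIF3 and the eIF4 factors and scans to a start codon. Elongation then adds amino acids by turns of eEF1A, which delivers aminoacyl-tRNA, and eEF2, which moves the ribosome along by one codon. Cells tune the process mainly by phosphorylating eIF2 and by sequestering the cap-binding protein eIF4E, and growing embryonic tissue depends on both steps.

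Counts on genes were 36544554, 35351031 and 40057435 in replicates 1, 2 and 3. All 8 markers of facial mesenchyme on the list, among them *Prrx1*, *Twist1* and *Msx1*, were present in every library, with summed levels of 1658, 1852 and 2340 CPM (counts per 1000000 counts on genes after TMM scaling). The higher sum in replicate 3 came from *Barx1* at 332, 409 and 928 CPM, without which the sums lay between 1326 and 1443 CPM, and *Prrx1* was lowest there at 629, 582 and 419 CPM. The libraries were unequal in other cell types. Neuronal markers summed to 273 CPM in replicate 1 against 24.3 and 35.9 CPM in the others, with 9 of 9 highest in replicate 1, while pigment cell markers summed to 2.49, 12.9 and 98.2 CPM, with *Tyr* and *Tyrp1* at 0 in replicate 1, and eye and forebrain markers to 20.96, 140 and 131 CPM. Erythroid markers, mainly the embryonic globins, summed to 1957, 3649 and 4277 CPM, with 2 of 7 highest in replicate 3. Skeletal muscle markers summed to 30.3, 25.1 and 65.1 CPM, of which *Des* alone gave 58.2 CPM in replicate 3, while *Myf5* and *Actc1* were highest in replicate 1. In bulk tissue, fewer cells of a type and less RNA per cell cannot be told apart.

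The coding sequences show how far reads of close copies can be told apart, and the first 90 coding bases are printed for the 3 pairs on which the comparison of copies turns. They were read from the longest protein-coding transcript of each gene in GENCODE M21 (GRCm38), from the start codon, with capitals at the positions where the copies differ. Over the whole aligned coding sequence *Eef1a1* and *Eef1a2* were 80.1% identical, with a longest identical run of 23 bases. *Eef1a1* lies at chr9:78478449-78489151 on the minus strand and *Eef1a2* at chr2:181147653-181157014 on the minus strand, and 15 of these 90 bases differ.
Eef1a1: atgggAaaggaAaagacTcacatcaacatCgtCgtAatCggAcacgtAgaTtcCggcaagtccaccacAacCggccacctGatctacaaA
Eef1a2: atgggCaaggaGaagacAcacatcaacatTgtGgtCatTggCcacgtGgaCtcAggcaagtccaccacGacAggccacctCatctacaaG

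*Eif5a* (chr11:69916714-69921958, minus strand) and *Eif5a2* (chr3:28781276-28798846, plus strand) were 72.7% identical in their coding sequence, and 25 of the first 90 bases differ.
Eif5a: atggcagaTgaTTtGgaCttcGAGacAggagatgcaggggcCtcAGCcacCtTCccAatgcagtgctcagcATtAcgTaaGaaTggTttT
Eif5a2: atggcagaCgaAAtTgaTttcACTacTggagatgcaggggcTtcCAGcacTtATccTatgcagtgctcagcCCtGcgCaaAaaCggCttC

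*Eif1* (chr11:100319885-100322096, plus strand) and *Eif1b* (chr9:120492232-120495330, plus strand), factors that keep the scanning ribosome from starting at the wrong codon, were 81.3% identical, and 13 of the first 90 bases differ.
Eif1: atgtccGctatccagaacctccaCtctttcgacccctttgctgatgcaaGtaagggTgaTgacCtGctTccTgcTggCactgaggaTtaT
Eif1b: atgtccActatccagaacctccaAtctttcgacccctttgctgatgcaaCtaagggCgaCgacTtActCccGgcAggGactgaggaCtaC

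These differences leave no shared stretch as long as a read of 150 bases, and none of the 150-base words of *Eef1a2*, *Eif5a*, *Eif5a2* or *Eif1b* occurs in a transcript of another gene. Among all members 40 shared no such word and 11 shared over 10% of theirs. The largest shares were 77.1% for *Eif3j2*, with *Eif3j1*, 59.7% for *Eif4ebp3*, 56.6% for *Eif4a1*, with the pseudogene *Eif4a-ps4*, 41.7% for *Eef1g* with 3 pseudogenes and 40.8% for *Eif3j1*. Reads from such stretches can lack a unique place or overlap more than 1 gene, and both kinds were left uncounted, so the levels of these 5 genes may be understated by an amount that was not measured. *Eef1a1* shared 10.1% of its words, with 3 pseudogenes.

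As a group the factors were among the more abundant messages of the tissue. They took 3.41%, 3.38% and 3.34% of all counts on genes in replicates 1 to 3, a mean of 3.38% ± 0.0367 (SD, n = 3). Levels of different genes were compared as TPM, which divides counts by exonic length. The median member stood at 131 TPM, against 2.62 TPM over all 21897 protein-coding genes and 14.8 TPM over the 14105 of these with a mean of at least 10 counts, and 55 members lay above the latter value. By mean TPM 36 members were over 100, 23 between 10 and 100 and 7 under 10, and 29 were among the 1000 highest genes of the files. The group was uneven: *Eef1a1*, *Eef2*, *Eif5a*, *Eef1g* and *Eif4a1* together held 56.0% ± 0.910 of its counts (SD, n = 3).

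**Figure D1:**
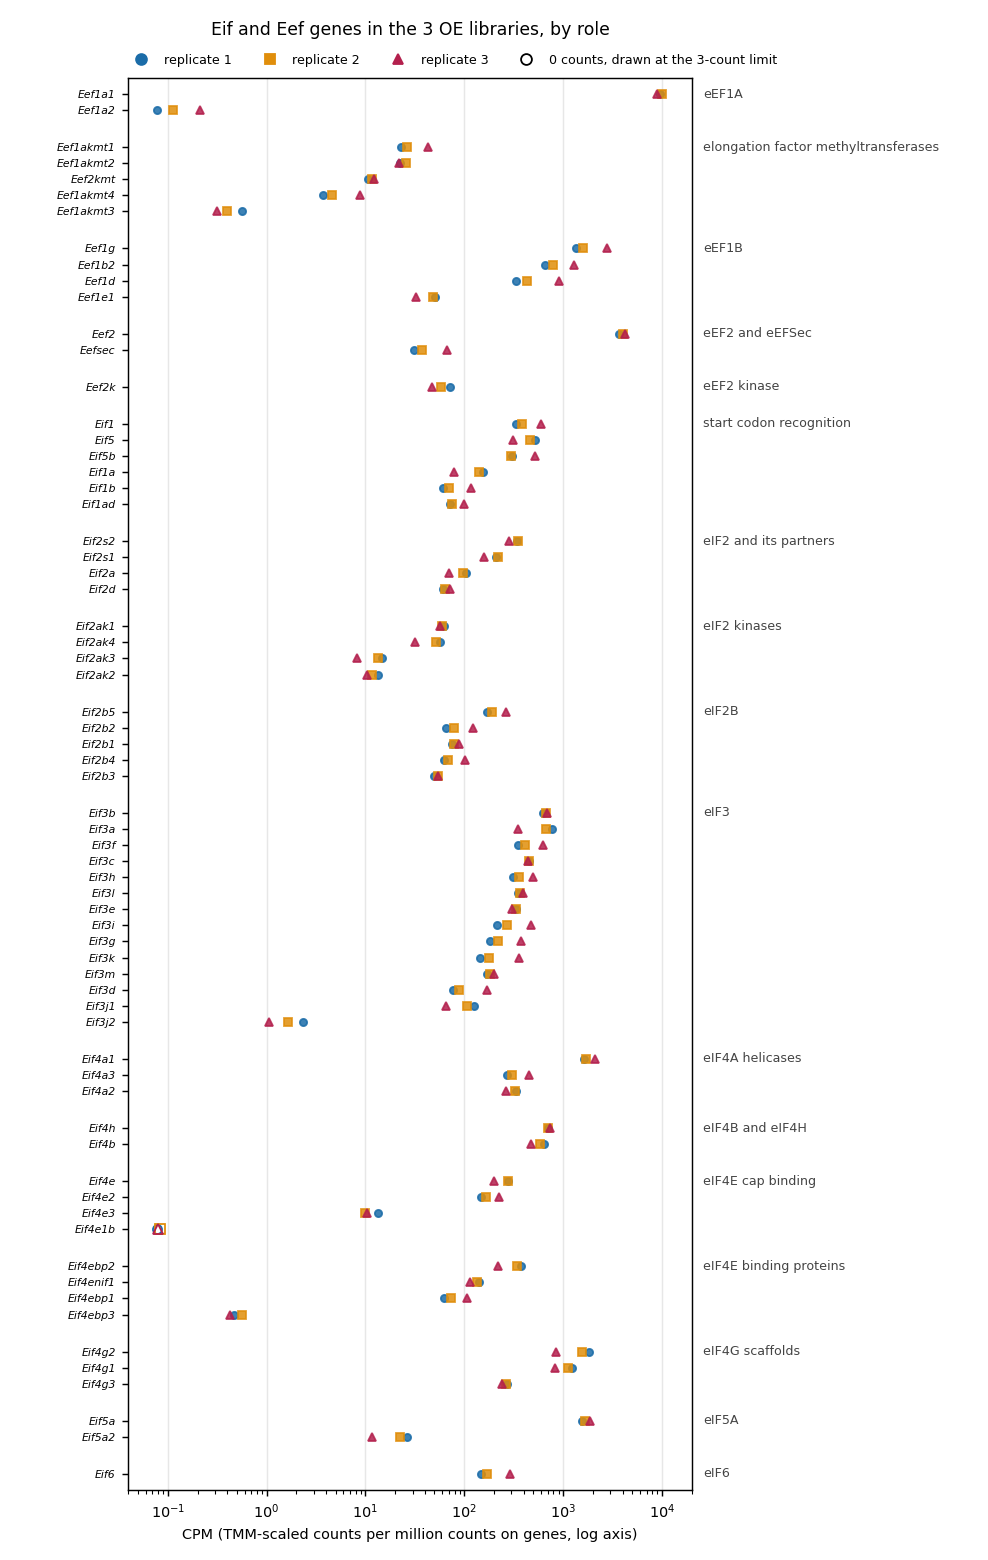
CPM of all 66 genes in each OE library (log axis), grouped by role. Circles, squares and triangles stand for replicates 1, 2 and 3, and open symbols at the 3-count limit stand for 0 counts. The members span from *Eif4e1b* at 0 to *Eef1a1* at a mean of 9503 CPM, and for 57 of the 64 genes compared the square lies between the other 2 symbols, 89.1% against 67.7% of all 17115 genes tested.

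Among the elongation factors, *Eef1a1* was the most abundant member and ranked 4 by mean TPM among all genes. It stood at 9525, 9979 and 9003 CPM in replicates 1 to 3, a mean of 9503 ± 488 CPM (SD, n = 3), and alone made up 29.5%, 29.7% and 25.4% of the members' counts. Its levels in the 3 libraries were close in CPM, with a highest to lowest ratio of 1.11. In TPM they were less so, with replicate 3 at 9056 against 14281 in replicate 1.

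Its copy *Eef1a2*, known as the form of adult neurons and striated muscle, was near the detection limit, at 0.0777, 0.112 and 0.212 CPM. In TPM, *Eef1a1* stood at 14281, 12801 and 9056 and *Eef1a2* at 0.139, 0.172 and 0.256. The ratio of *Eef1a1* to *Eef1a2* was therefore 102440 in replicate 1 (95% counting interval 35053 to 496745, exact binomial), 74230.1 in replicate 2 (28991 to 272439) and 35440.5 in replicate 3 (17986 to 82090.4). On the log2(TPM + 0.1) scale, which understates folds of so low a gene, the difference was 15.34 ± 0.63 (SD, n = 3), with *Eef1a1* higher in 3 of 3 libraries. An exact two-sided sign-flip permutation test over 3 libraries cannot give a p below 0.25, which is the value for this pair and for every pair with one direction throughout. With 3, 4 and 8 counts *Eef1a2* was left out of the comparison of libraries, so whether it differed between them was not tested, nor was it set against the neuronal or muscle markers.

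The eEF1B factors, which recharge eEF1A with GTP, showed some of the largest gaps between libraries. *Eef1g*, the structural subunit, stood at 1338, 1590 and 2784 CPM. *Eef1b2*, an exchange subunit, stood at 650, 784 and 1300 CPM, and *Eef1d*, the other exchange subunit, at 332, 428 and 907 CPM. All 3 were highest in replicate 3, as 43.2% of all genes tested were, and *Eef1d* had the largest highest to lowest ratio of any member compared, 2.73. *Eef1e1*, a scaffold protein of the tRNA synthetase complex with a related domain, went the other way, at 51.0, 48.0 and 32.4 CPM. In TPM the order within each library was *Eef1g*, *Eef1b2* and *Eef1d*, and *Eef1g* exceeded *Eef1d* 10.05, 9.27 and 7.66-fold.

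*Eef2*, the translocase, stood at 3697, 4035 and 4270 CPM, second among the members and with a ratio of 1.16 between libraries. *Eef2k*, the kinase that switches eEF2 off, was far lower, at 71.8, 58.3 and 47.7 CPM. The opposite order of both genes holds for CPM only, since in TPM both were lowest in replicate 3, and with the length and GC trend removed the log2 difference of replicate 3 was -0.24 for *Eef2* and -0.16 for *Eef2k*. *Eefsec*, which delivers selenocysteine tRNA, stood at 31.2, 37.4 and 67.4 CPM, so replicate 3 was 2.16 times replicate 1.

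The methyltransferases that modify elongation factors ranged from a mean of 0.513 TPM for *Eef1akmt3* to 97.9 TPM for *Eef1akmt1*, all under the median member. *Eef1akmt1* stood at 23.0, 26.4 and 43.0 CPM and *Eef1akmt2* at 22.5, 26.0 and 21.8 CPM. *Eef1akmt4*, with 26.5% of its words shared with *Gm49333*, stood at 3.76, 4.64 and 8.87 CPM. *Eef2kmt* at 406, 411 and 462 counts differed by no more than counting noise (adjusted p = 0.091), and so did *Eef1akmt3*, whose 22, 14 and 12 counts gave an adjusted p of 0.252. That test compared each gene's counts with the scaled library sizes by chi-square, with Benjamini-Hochberg adjustment over the 17115 genes with a mean of at least 10 counts.

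Of the factors that read the start codon, *Eif1* stood at 338, 382 and 599 CPM and *Eif1b* at 60.8, 70.2 and 118 CPM. Both were highest in replicate 3, and in TPM *Eif1* exceeded *Eif1b* 2.98, 2.92 and 2.71-fold, a log2 difference of 1.52 ± 0.071 (SD, n = 3). This was the smallest spread of any of the 14 pairs over the 3 libraries, in TPM without the length and GC trend removed. Without replicate 2 the SD of *Eif4e* over *Eif4e3* was smaller, 0.062 against 0.096 for *Eif1* over *Eif1b*. With the length and GC trend removed the replicate 3 difference of *Eif1* minus that of *Eif1b* passed from -0.12 to 0.30 on the log2 scale. *Eif1a*, which works beside eIF1 in scanning, was highest in replicate 1 at 156, 142 and 79.7 CPM. *Eif1ad* stood at 72.2, 74.6 and 98.8 CPM.

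*Eif5*, which makes eIF2 hydrolyse its GTP at the start codon, stood at 516, 458 and 312 CPM, lowest in replicate 3. *Eif5b*, the GTPase that joins the large subunit, stood at 302, 297 and 517 CPM, highest there. Both genes were close in replicates 1 and 2 and differed from these in replicate 3 in opposite directions. The opposite directions were lost with a length and GC trend over all genes removed, where the log2 difference of replicate 3 passed from -0.64 to 0.01 for *Eif5* and from 0.79 to 1.48 for *Eif5b*. In *Eif5b* 12.2% of the words were shared with *Rev1*.

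The alpha and beta subunits of eIF2, *Eif2s1* and *Eif2s2*, stood at 208, 219 and 159 CPM and at 345, 354 and 285 CPM. Both were lowest in replicate 3, and in TPM *Eif2s2* exceeded *Eif2s1* 1.22, 1.18 and 1.31-fold. With the length and GC trend removed the log2 difference of replicate 3 changed sign, from -0.42 to 0.14 for *Eif2s1* and from -0.29 to 0.34 for *Eif2s2*. The gamma subunit is encoded on the sex chromosomes and lies outside the rule. *Eif2a* and *Eif2d*, which can bring tRNA to the ribosome without eIF2, stood at 105, 96.5 and 70.9 CPM and at 61.5, 63.6 and 72.4 CPM. Of these 4 genes 1 was higher in replicate 3 than the mean of the others, as 48.7% of all genes tested were. With the trend removed all 4 were higher.

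In CPM the subunits of eIF2B, which returns eIF2 to its active form, were highest in replicate 3 in 5 of 5 cases. Of all genes tested 43.2% were. With total counts it was 4 of 5, as *Eif2b3* changed sign (log2 difference 0.08 against -0.05). All but *Eif2b3* have under 3000 exonic bases. Of all genes of that length 69.6% were higher in replicate 3 than the mean of the others. In TPM *Eif2b1* at 109, 98.3 and 85.9 and *Eif2b3* at 28.1, 26.4 and 20.9 were lowest in replicate 3. *Eif2b5*, the catalytic subunit, stood at 169, 190 and 268 CPM. *Eif2b2* stood at 65.8, 79.7 and 122 CPM and *Eif2b4* at 62.3, 68.5 and 101 CPM. The remaining subunits moved little, *Eif2b1* with 74.9, 79.3 and 88.4 CPM and *Eif2b3* with 49.0, 53.9 and 54.5 CPM. In TPM *Eif2b5* was the highest and *Eif2b3* the lowest subunit in each library, with ratios of 8.68, 8.86 and 12.3.

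The eIF2 kinases, which phosphorylate the alpha subunit under stress, were all lower in replicate 3 than the mean of the others, or 2 of 4 with the length and GC trend removed. Of all genes tested 48.7% were higher there. *Eif2ak4*, the sensor of amino acid shortage, stood at 57.1, 51.9 and 31.4 CPM, and *Eif2ak3*, the sensor of endoplasmic reticulum stress, at 14.8, 13.3 and 8.31 CPM. *Eif2ak2*, the sensor of double-stranded RNA, stood at 13.4, 11.7 and 10.3 CPM. *Eif2ak1*, the heme-regulated kinase that is best known in red blood cell precursors, was the highest of the 4, with 46.6%, 47.9% and 57.1% of their summed TPM. It stood at 63.0, 59.6 and 57.4 CPM, within a ratio of 1.10, while the erythroid sum, carried by *Hba-x* and *Hbb-y*, was lowest in replicate 1 and highest in replicate 3. The other 5 erythroid markers, among them *Gata1* at 3.47, 5.70 and 2.65 CPM and *Klf1* at 6.97, 11.9 and 7.30 CPM, were highest in replicate 2.

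Of the 8 genes listed as targets induced when eIF2 is phosphorylated, 7 differed beyond counting noise, a share near the 81.5% of all genes tested. Of the 8 genes 6 were higher in replicate 3, and 6 were with the length and GC trend removed. Of all genes tested 48.7% were higher there, but 7 of the 8 targets have under 3000 exonic bases, and of all genes of that length 69.6% were higher. *Atf4*, the transcription factor at the head of that response, stood at 194, 232 and 351 CPM. *Ddit3* stood at 4.33, 5.39 and 12.7 CPM, *Trib3* at 2.18, 1.29 and 4.49 CPM and *Atf5* at 15.7, 13.5 and 25.9 CPM. *Ppp1r15b*, which targets a phosphatase to eIF2, was lowest in replicate 3 at 102, 83.7 and 63.8 CPM, and *Asns* stood at 73.0, 76.1 and 79.4 CPM. These are mRNA levels, and the phosphorylation of eIF2 was not measured.

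The 14 eIF3 genes all differed beyond counting noise, as 81.5% of all genes tested did, with 9 higher and 5 lower in replicate 3, or 8 and 6 with total counts, where *Eif3b* changed sign, and 10 and 4 with the length and GC trend removed. Of all genes tested 48.7% were higher in replicate 3. eIF3 is the large scaffold on the small ribosomal subunit. *Eif3k* at 145, 180 and 357 CPM and *Eif3d* at 76.4, 88.3 and 171 CPM had the largest ratios between libraries. *Eif3a*, its largest core subunit, went the other way at 775, 671 and 349 CPM. *Eif3c* stayed within a ratio of 1.03, at 454, 451 and 439 CPM, and *Eif3b* within 1.11. Of the other subunits, *Eif3i* at 213, 270 and 475 CPM, *Eif3g* at 183, 217 and 375 CPM, *Eif3f* at 351, 410 and 621 CPM and *Eif3h* at 314, 361 and 500 CPM were highest in replicate 3. *Eif3e*, *Eif3l* and *Eif3m* stayed within ratios of 1.11, 1.13 and 1.20. *Eif3d* shares 43.3% of its exonic bases with exons of another gene, where reads can be left unassigned.

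Per length, the subunits of the complex were not equal. Over the 13 subunits *Eif3a* to *Eif3m*, with *Eif3j1* standing for *Eif3j*, *Eif3h* had the highest TPM in every library, at 729, 717 and 777. The lowest was *Eif3d* at 57.5 and 56.8 TPM in replicates 1 and 2, and *Eif3j1* at 28.2 TPM in replicate 3. The highest to lowest ratio was 12.7, 12.6 and 27.5 in the 3 libraries. The order depends on the length used. With the longest coding transcript *Eif3j1* was lowest in every library, *Eif3i* was highest in replicate 3 at 778 TPM, and the ratios were 10.6, 14.2 and 34.9. With unshared exonic bases *Eif3h* was highest and *Eif3j1* lowest in every library, with ratios of 7.30, 9.81 and 21.985. The median subunit stood at 332, 246 and 314 TPM.

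**Figure D2:**
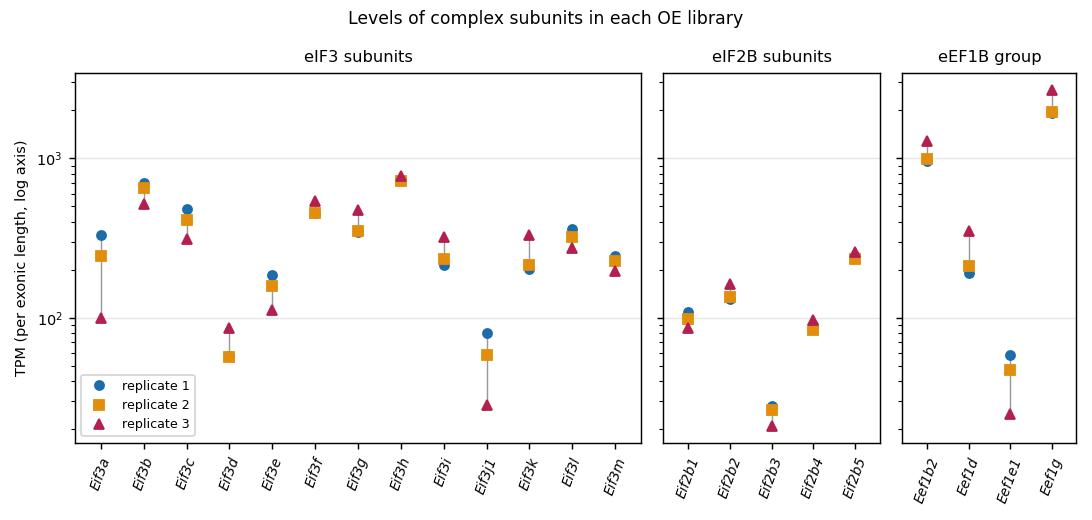
TPM (log axis) of eIF3, eIF2B and eEF1B group genes in each OE library, with a grey line from the lowest to the highest library. With all exons as length *Eif3h*, *Eif2b5* and *Eef1g* are highest within their group in all libraries, and among the 13 eIF3 subunits drawn *Eif3a* and *Eif3j1* have the lowest triangles relative to their other symbols.

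*Eif3j1* and *Eif3j2* are a special pair, since their coding sequences align without a single differing base over 786 bases. The coding sequences are 786 and 792 bases long, so the alignment holds a gap. *Eif3j1* had 4801, 3783 and 2472 counts and *Eif3j2* had 91, 59 and 40. The ratio in TPM was 21.5, 26.2 and 25.2, with the first gene higher in 3 of 3 libraries. Only reads outside the shared stretches can be assigned, so this ratio describes the assigned reads and not the copies as a whole.

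Of the eIF4A helicases, which unwind the 5′ end of the mRNA, *Eif4a1* stood at 1628, 1728 and 2124 CPM and *Eif4a2* at 333, 327 and 262 CPM. The TPM ratio was 6.02, 6.50 and 9.98, so the gap was widest in replicate 3. With the length and GC trend removed the log2 difference of replicate 3 was 0.56 for *Eif4a1* and 0.28 for *Eif4a2*, and the widening fell from 0.67 to 0.29. *Eif4a3*, which serves in the exon junction complex rather than in initiation, stood at 269, 307 and 450 CPM, and *Eif4a1* exceeded it 2.97, 2.75 and 2.31-fold in TPM. The pair *Eif4b* and *Eif4h*, which stimulate the helicase, were close, at 642, 584 and 474 CPM for *Eif4b* and at 710, 711 and 731 CPM for *Eif4h*. Their TPM ratio of 1.12, 1.02 and 0.805 crossed 1, and an exact sign-flip permutation test gave p = 1.00 on 3 libraries.

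The eIF4G proteins are the scaffolds that join the cap-binding protein, the helicase and eIF3, and all 3 were lowest in replicate 3 in CPM. Of all genes tested 48.7% were higher in replicate 3 than the mean of the others, and with the length and GC trend removed 1 eIF4G gene was higher and 2 were lower. *Eif4g1* stood at 1229, 1123 and 836 CPM, and *Eif4g2* at 1851, 1560 and 841 CPM. *Eif4g3* stood at 270, 265 and 240 CPM, and *Eif4g1* exceeded it 6.89, 6.42 and 5.28-fold in TPM. *Eif4g2* lacks the region that binds eIF4E. In TPM it was close to *Eif4g1*, at 680, 491 and 208 against 629, 492 and 287, and the ratio of *Eif4g1* to *Eif4g2* was 0.925, 1.00 and 1.38. With the length and GC trend removed the replicate 3 difference of *Eif4g1* minus that of *Eif4g2* changed sign, from 0.52 to -0.12 on the log2 scale. *Eif4g2* is also the one member of 66 whose annotated coding sequence does not begin with ATG. The first 30 coding bases of *Eif4g2* (chr7:111067750-111083030, minus strand), with the start codon in capitals, are printed for this reason.
Eif4g2: GTGgagagtgcgattgcagaagggggtgct

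*Eif4e*, the cap-binding protein, stood at 278, 277 and 202 CPM and *Eif4e2*, a cap-binding repressor, at 149, 168 and 225 CPM. The TPM ratio of *Eif4e* to *Eif4e2* was 2.33, 2.06 and 1.12, the pair coming closest in replicate 3. *Eif4e3* was lower, at 13.5, 9.95 and 10.3 CPM, and *Eif4e* exceeded it 8.64, 11.6 and 8.17-fold. *Eif4e1b*, a form known from oocytes, had no count. A count of 0 allows up to 3 counts per library, which is 0.0777, 0.0843 and 0.0796 CPM, and against that limit *Eif4e* was at least 1343, 1232 and 949.8-fold higher in TPM.

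The proteins that sequester eIF4E changed order between libraries. *Eif4ebp2* stood at 371, 338 and 222 CPM and *Eif4ebp1* at 62.5, 73.8 and 108 CPM. In TPM *Eif4ebp1* stood at 106, 108 and 123 and *Eif4ebp2* at 240, 187 and 96.3. The ratio of *Eif4ebp1* to *Eif4ebp2* was thus 0.444 and 0.575 in replicates 1 and 2 and 1.28 in replicate 3, and its counting interval there, 1.23 to 1.33, lay apart from the others. *Eif4ebp3* had 18, 20 and 16 counts, within counting noise (adjusted p = 0.707), and *Eif4ebp2* exceeded it 102, 77.5 and 67.3-fold in TPM. Since 67.3% of the exonic bases of *Eif4ebp3* lie in exons of another gene, reads there can be left unassigned, and with unshared bases as length the mean log2 ratio was 4.70 rather than 6.27. *Eif4enif1*, which carries eIF4E into the nucleus, stood at 142, 135 and 114 CPM.

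*Eif5a*, the hypusine-bearing factor that helps ribosomes through difficult peptide bonds, stood at 1555, 1680 and 1854 CPM. *Eif5a2* stood at 26.3, 22.5 and 11.7 CPM. In TPM the ratio was 125 in replicate 1 (95% counting interval 117 to 133), 158 in replicate 2 (147 to 170) and 336 in replicate 3 (306 to 370). The intervals do not overlap, and the difference between replicates 1 and 3 came more from *Eif5a2*, with a highest to lowest ratio of 2.25, than from *Eif5a*, with 1.19. With the length and GC trend removed the log2 difference of replicate 3 passed from -1.05 to -0.44 for *Eif5a2* and from 0.20 to -0.23 for *Eif5a*, so that the gap between them fell from 1.25 to 0.21. *Eif6*, which holds the large subunit back until it is ready, stood at 147, 172 and 288 CPM.

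**Figure D3:**
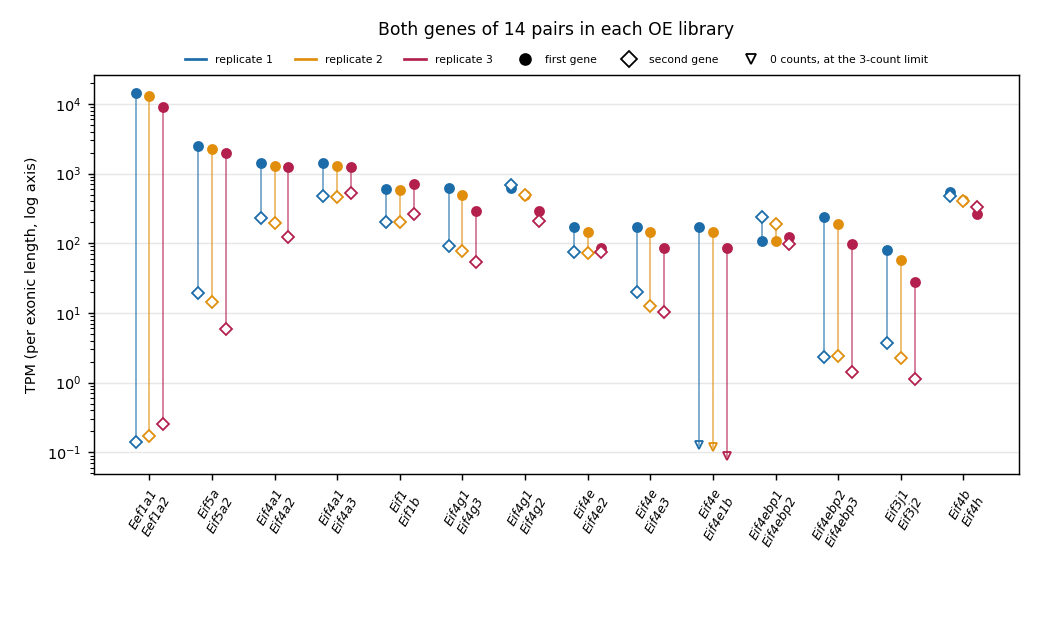
TPM (log axis) of both genes of 14 paralogue or partner pairs in each OE library. Filled circles are the first gene named, open diamonds the second, and open triangles mark 0 counts at the 3-count limit. In 11 pairs the circle lies above in every library, and in *Eif4g1* with *Eif4g2*, *Eif4ebp1* with *Eif4ebp2* and *Eif4b* with *Eif4h* the order changes.

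Of the 13 pairs other than *Eef1a1* and *Eef1a2*, the first gene was higher in all 3 libraries in 10. The other 3 pairs changed order, and in each of them replicate 3 differed from replicate 1. Of the 12 pairs in which both genes had enough counts, 5 changed the sign of the replicate 3 shift of their ratio with the length and GC trend removed, namely *Eif1* with *Eif1b*, *Eif4a1* with *Eif4a3*, *Eif4g1* with *Eif4g2*, *Eif4e* with *Eif4e3* and *Eif4ebp2* with *Eif4ebp3*. The shift of *Eif4ebp1* against *Eif4ebp2* was 1.34 before and 1.18 after, and that of *Eif4e* against *Eif4e2* was -0.97 and -0.69. The pair ratios range over orders of magnitude, from the eEF1A pair down to pairs near 1. Ratios per length rest on the annotated exons. With the longest coding transcript in place of all exons, the mean log2 ratio of *Eif4e* to *Eif4e2* passed from 0.81 to -0.04, that of *Eif4a1* to *Eif4a3* from 1.41 to 2.21 and that of *Eif4b* to *Eif4h* from -0.04 to -0.85.

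Differences between libraries were common among the members, as among all genes. Counting noise was exceeded by 61 of 64, against 81.5% of the 17115 genes tested. The members were not compared with genes of like counts. The highest library was at least 1.5 times the lowest for 35 of 64, or 54.7%, against 61.9% of the genes tested. Replicate 3 was the highest library for 34 of 64, or 53.1%, against 43.2%, replicate 1 for 25 and replicate 2 for 5. After *Eef1d* the largest ratios were 2.46 for *Eif3k*, 2.36 for *Eef1akmt4*, 2.25 for *Eif5a2* and 2.24 for *Eif3d*. The smallest were those of *Eif4h* and *Eif3c*, at 1.03. The median relative SD over the 3 libraries was 23.7% for the members and 27.0% for all genes tested. Without replicate 3 no member reached a ratio of 1.5, against 16.5% of the genes tested.

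The direction of the difference varied with the length of the gene. Of 28 members with an exonic length under 3000 bases, 22 were higher in replicate 3 than the mean of the others, or 78.6%, against 69.6% of all genes of that length. Of 18 members of 3000 to 6000 bases 7 were higher, or 38.9% against 45.8%, and of 18 members over 6000 bases 5 were higher, or 27.8% against 23.0%. Across the 64 members the log2 CPM difference of replicate 3 had a Spearman correlation of -0.469 with exonic length, close to the -0.442 over 17101 genes, and of 0.593 with GC content against 0.436. Total counts in place of TMM scaling shifted the median of all genes by -0.131, and 3 members then changed sign, *Eif2b3*, *Eif3b* and *Eif4h*. Members are not independent replicates, they come from the same 3 libraries, and length and GC content differ together.

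**Figure D4:**
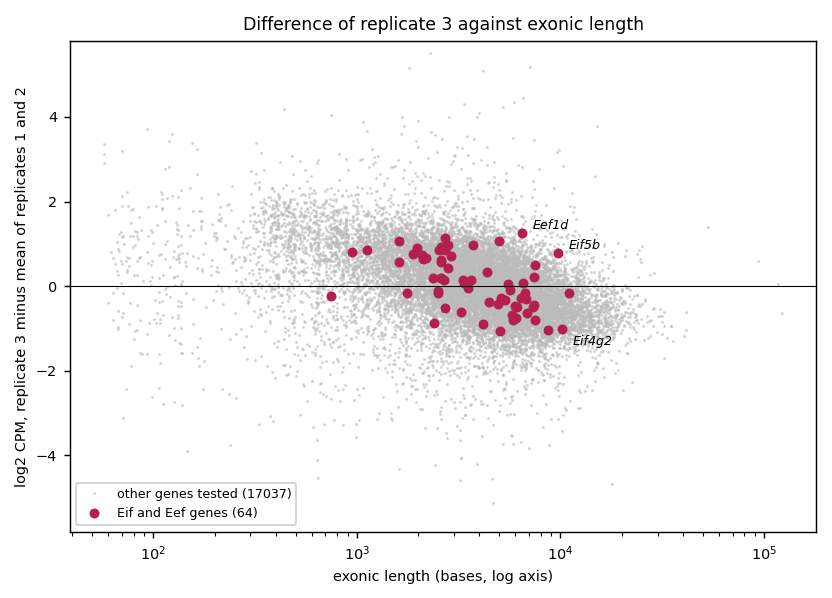
Log2 CPM of replicate 3 minus the mean of replicates 1 and 2 against exonic length (bases, log axis), for the members (red) and the other genes tested (grey). Both clouds slope downward, and *Eef1d* and *Eif5b* lie above the members of like length.

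After a smooth trend on length and GC content over all genes was removed, the correlation with length was -0.085 among the members and -0.047 over all genes. A ratio of 1.5 between libraries was reached by 20 of 64 members rather than 35, and by 45.9% of all genes tested rather than 61.9%. *Eif5b* (1.48) and *Eef1d* (1.19) then had the largest log2 differences of replicate 3, at the 97.7 and 95.8 percentiles of the genes tested, followed by *Eif3d* at 0.96 and *Eef1b2* at 0.94. *Eif4ebp3* had the lowest at -1.02, from 16 to 20 counts. *Eif4g2* and *Eif3a*, the lowest long genes before, were at -0.30 and -0.42. Of the 5 eIF2B genes all remained above 0, at 0.11 to 0.52, whereas *Eif2ak1* and *Eif2ak2* changed sign to 0.17 and 0.19 and *Eif2ak3* and *Eif2ak4* stayed at -0.57 and -0.46. Of the eIF4G genes *Eif4g3* changed sign, to 0.17. In all 16 members changed sign with the trend removed. Beside those and *Eif5*, *Eif2s1* and *Eif2s2*, the genes that passed above 0 were *Eif3e* at 0.54, *Eif4a2* at 0.28, *Eif4e* at 0.18, *Eif2a* at 0.04 and *Eif3c* at 0.01. *Eef2* at -0.24, *Eif3b* at -0.24, *Eif5a* at -0.23, *Eef2kmt* at -0.19 and *Eif4h* at -0.06 passed below 0. The part of tissue composition in these differences was not tested.

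Other genes of the same pathway, taken from a list, behaved in the same range. Of 25 genes for poly(A) binding, termination, recycling, hypusine and diphthamide synthesis and mitochondrial translation, 21 differed beyond counting noise, a share near the 81.5% of all genes tested, with 10 higher and 15 lower in replicate 3, where 48.7% of all genes tested were higher. With the length and GC trend removed 10 were higher and 15 lower too. *Pabpc1*, the poly(A)-binding protein that touches eIF4G, was the highest at 707 ± 310 TPM (SD, n = 3) and stood at 1688, 1623 and 945 CPM. *Tufm*, the mitochondrial counterpart of eEF1A, stood at 172, 201 and 263 CPM, and *Etf1*, a release factor, at 321, 308 and 209 CPM. The largest ratios were 2.19 for *Gspt1* and 2.04 for *Abce1*, partners in termination and recycling, both lowest in replicate 3. *Dhps* and *Dohh*, the enzymes that make hypusine on *Eif5a*, stood at 34.1, 38.6 and 55.5 CPM and at 32.2, 38.6 and 48.8 CPM, higher in replicate 3, as *Eif5a* was before the trend was removed (log2 difference 0.20) but not after (-0.23).

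Many mRNAs of the translation machinery are known to start with a C followed by a run of pyrimidines, through which their own translation is set by growth signals. RefSeq start windows (GRCm38.p6) were found for 50 members, 65 windows in all. A C at the annotated start followed by 4 letters C or T was present in 1 of them, or 1.54%, against 2.51% of 32851 windows of all genes, and a C followed by 6 letters C or T within the 30 bases from 10 before to 20 after the start in 14 windows of 12 members, or 21.5% against 13.5%, on the strand of the gene only. The windows are printed for the one with the run at its start, *Eif3f*, and for *Eef1a1* and *Eef2*, the most abundant members, with the run in capitals. A match describes letters only, and the annotated starts may be some bases off.
Eif3f (chr7:108934405-108934434, plus strand): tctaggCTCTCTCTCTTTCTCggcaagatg
Eef1a1 (chr9:78481705-78481734, minus strand): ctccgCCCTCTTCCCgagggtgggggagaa
Eef2 (chr10:81176621-81176650, plus strand): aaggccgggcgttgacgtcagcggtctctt
In *Eif3f* the run began 4 bases before the annotated start and covered 15 bases, and in *Eef1a1* 5 bases before it and covered 10. In *Eef2* the window held no such run, but its last bases are all C or T up to the window end. Whether that stretch goes on past the window was not searched.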

How the data were processed

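Total RNA of E10.5 maxillary processes was made into poly(A) libraries with a kit that does not mark strand and read as 150 bp pairs. The authors mapped reads to mm10 with STAR 2.7.3a and deposited raw whole-number counts per gene for 3 OE libraries (HTSeq 0.12.4 and FastQC per the submitters' processing notes). The strand setting and annotation release are not given in the sources used here. Rows naming no gene held 14.2%, 15.7% and 16.4% of reads and were left out; 6.11%, 6.10% and 6.96% overlapped several genes. The number of sample columns not used was 0.

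Of 55401 identifiers 55141 matched GENCODE M21 and 260 did not. CPM used TMM factors of 1.06, 1.01 and 0.940 from edgeR 4.0.16 in R 4.3.3. TPM used the union of exons, and pair differences a pseudocount of 0.1 TPM. A prior count of 2 was added for log2 CPM when replicate 3 was compared with the others. Counting noise was tested by chi-square at an adjusted p of 0.05, checked on simulated data. Intervals and the limit of 3 counts cover counting error only. The length and GC trend came from mgcv 1.9.3, alternative size factors from DESeq2 1.42.0, and alignments from Biopython 1.88 (Python 3.11.15, scipy 1.17.1). RefSeq start windows matched 50 of 66 symbols.

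Members were all described by role. Values per library are given for pairs, the 5 highest and 5 lowest by TPM, those at or under 3 counts, the 5 largest ratios, and from the other lists the 3 highest and 3 most variable genes. Members and lists were chosen with earlier results of these data known. Alternatives were other scalings, count filters, prior counts, pseudocounts and lengths, a removed length and GC trend, and each replicate left out. The design gave 1 group, so no contrast between groups was fitted.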

Additional observations from a re-analysis of the deposited data

Results flagged for a closer look

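Rows named Eif or Eef that the rule leaves out, being pseudogenes or on a sex chromosome, also held counts. Of 14 such rows 9 exceeded 3 counts in at least 1 library. The X-linked *Eif1ax* averaged 197 CPM, with 204, 198 and 189 CPM in the 3 libraries. The gamma subunit of eIF2 averaged 127 CPM for *Eif2s3x*, with 213, 119 and 50.6 CPM, and 30.6 CPM for the Y-linked *Eif2s3y*, with 0, 1479 and 1896 counts. *Eif2s3x* was therefore highest in the one library without *Eif2s3y* counts. Among the 10 processed pseudogenes *Eif4a-ps4* stood out at 25.5 CPM, with 811, 796 and 1252 counts, and 56.6% of the 150-base words of *Eif4a1* occur in its transcript. The others above the limit were far lower in mean CPM, at 0.982 for *Eif5al3-ps*, 0.419 for *Eif3s6-ps2*, 0.276 for *Eif3s6-ps1*, 0.248 for *Eif1-ps1* and 0.0432 for *Eif2s3x-ps1*, the last with 5 counts in replicate 1 alone.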

How the results depend on the processing

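No paired analysis was possible because the labels give 1 group. The median log2 difference of replicate 3 over members, 0.084 against -0.027 over all genes tested, became -0.049 with total counts (all genes -0.158). With the length and GC trend removed it was 0.172 (all genes 0.019). Under that trend 20 rather than 35 members reached a ratio of 1.5, and 45.9% rather than 61.9% of all genes tested. Protein-coding genes as denominator gave a member share of 3.43%, and a limit of 10 counts gave 2 members instead of 1. With a pseudocount of 1 TPM the log2 difference of *Eef1a1* and *Eef1a2* was 13.28. With the longest coding transcript as length, *Eif4e* over *Eif4e2* was -0.036 in place of 0.81. Leaving out replicates gave 0 to 35 members at the ratio of 1.5, a median SD of 0.0808 to 0.317 of the mean, -0.055 to 0.24 for *Eif4g1* over *Eif4g2* and -0.141 to 0.099 for *Eif4b* over *Eif4h*. The lowest or highest of each was without replicate 3. Causes were not tested beyond the construction of each alternative. The difference of replicate 3 has no value without it. In all 54 of 62 values of the main results under an alternative stayed within their limits. With 3 libraries of one genotype, neither an effect of Dlx2 nor the spread between embryos can be estimated.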
